A study of Drosophila melanogaster
Gallus gallus with 8 samples.

Results

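Peak-dense windows were stretches of 100 kb of the chicken genome in which DNA:RNA hybrid peaks crowded together. Chromosomes 1 to 15 and Z were divided into fixed windows of 100000 bp, and a window was kept when at least 20 peaks started in it, *primpol* and wild type lists added. Of the 8751 windows that held at least 1 peak start, 537 (6.14%) met this rule. Together they held 12180 peaks, of which 6540 were from *primpol* and 5640 from wild type cells. This was 14.5% of the 84089 peaks on these chromosomes and 13.5% of the 89913 peaks of both lists. Because the windows were chosen by the measured number of peak starts, that number and its excess over other windows are a description and were not tested.

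R-loops form when a transcript anneals back to its template behind RNA polymerase, which leaves the other DNA strand unpaired. They are known from gene starts, gene ends and some repeats, and they can stand in the way of a replication fork. RNase H degrades the RNA of such hybrids, and PrimPol, a primase-polymerase, lays down a new primer beyond an obstacle so that DNA synthesis can go on past it.

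DNA:RNA immunoprecipitation and sequencing (DRIP-seq) with the S9.6 antibody, which recognises DNA:RNA hybrids, was performed in DT40, a chicken B-cell line, to map hybrids in cells with and without PrimPol. The 2 genotypes were PrimPol deficient (*primpol*) and wild type, with 2 DRIP libraries and 1 input library each and no drug treatment in the labels. Cells of both genotypes were mixed with *Drosophila* S2 cells before the pulldown, and 1 RNase H-treated library of each genotype was not used here. Each genotype is represented by 1 cell line and 1 peak list, and the labels assign both DRIP replicates to that list. The values below thus have no replicate error, and genotypes could not be tested against each other. The 95% intervals reflect the error of counting alone, as if each peak were independent, although neighbouring peaks share their library and local background. The lists rested on 44735404 DRIP and 30302032 input tags in *primpol* cells, and on 46425192 DRIP and 23107894 input tags in wild type cells. Input depth was thus 1.31 times as high in *primpol*. Sequences and genes under the peaks are not analysed here.

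The dense windows formed the upper tail of a continuous distribution. They held a median of 22 peak starts (interquartile range 21 to 24, highest 33), against a median of 8 in the other 8214 windows with a peak. By genotype, a dense window held 7 to 19 *primpol* peak starts with a median of 12, and 5 to 18 wild type peak starts with a median of 10. Every dense window therefore contained peaks of both lists. Just inside the limit, 128 windows with 20 starts held 1369 *primpol* and 1191 wild type peaks and had a median of 18.97 kb under a peak of either list. Just outside it, 176 windows with 19 starts held 1765 *primpol* and 1579 wild type peaks, with a median of 18.4 kb. Median widths were 961 bp in *primpol* and 852 bp in wild type inside the limit, and 1011 bp in *primpol* and 855 bp in wild type outside it, so no step was seen at the limit.

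**Figure D1:**
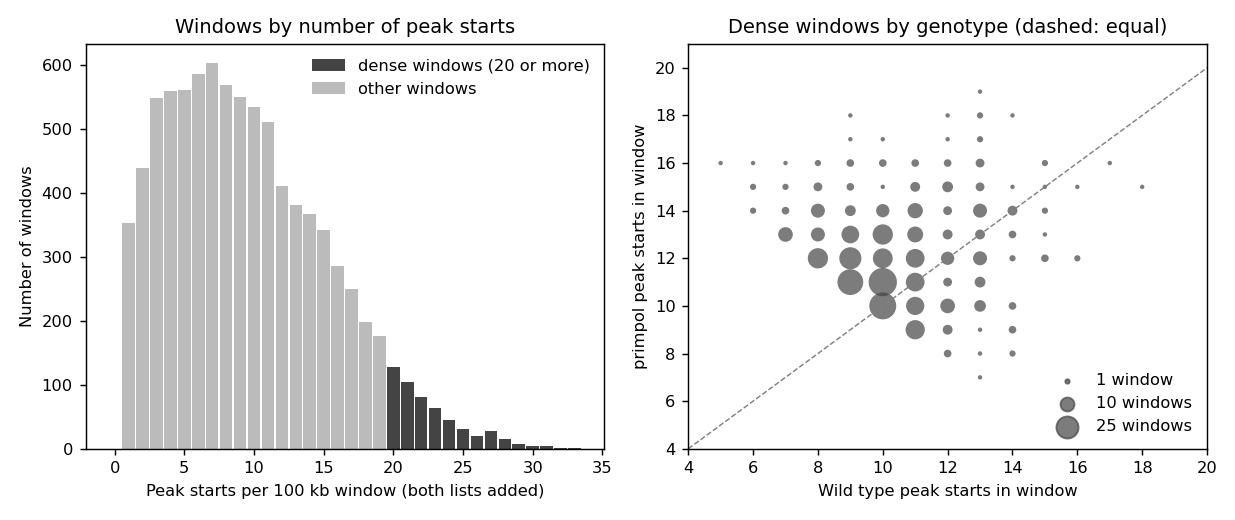
Left, number of 100 kb windows (y axis) by peak starts of both lists added (x axis), with the dense windows dark and the other windows light. Right, *primpol* (y axis) against wild type (x axis) peak starts in each of the 537 dense windows, with point area giving the number of windows and the dashed line equal numbers. The dense windows are the tail from 20 to 33 starts, and 353 of them lie above the dashed line.

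A window chosen on one genotype was also rich in peaks of the other. In the 514 windows with at least 10 wild type starts, a choice that did not use the *primpol* list, *primpol* starts ranged from 4 to 19 with a median of 11, against a median of 4 in the remaining windows. In the 976 windows with at least 10 *primpol* starts, wild type starts ranged from 1 to 18 with a median of 8, against a median of 3 in the remaining windows. Of the 537 dense windows, 343 reached 10 starts in both lists, 159 in *primpol* alone and 35 in wild type alone. Across all 9239 windows up to the last peak of each chromosome, the *primpol* and wild type numbers had a Spearman correlation of 0.79. This is a description, since both lists were counted in the same windows, whose base composition, mappability and copy number were not measured.

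The number of bases covered by peaks also set these windows apart, as the rule in part requires. A median of 22.1 kb of a dense window lay under a peak of either list (range 10.2 to 46.0 kb), against 6.91 kb in other windows. *primpol* peaks covered a median of 18.8 kb (6.27 to 44.3 kb) and wild type peaks 14.8 kb (3.77 to 39.0 kb) of a dense window. In sum, 10.4 Mb were covered in *primpol* and 8.19 Mb in wild type, a ratio of 1.27, against 1.25 in other windows. Dense windows thus carried 16.6% of all *primpol* and 16.3% of all wild type covered bases. Covered length varied more than 4-fold among windows that the rule treats alike, and within the dense windows it followed the number of starts only loosely (Spearman 0.43, n = 537 windows). The *primpol* and wild type covered lengths of the same window were more closely related (Spearman 0.78, n = 537 windows).

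*primpol* peaks outnumbered wild type peaks in dense windows to about the same degree as elsewhere. The ratio of *primpol* to wild type peaks was 1.16 (95% interval 1.12 to 1.2) in dense windows, against 1.19 (1.18 to 1.21) in other windows, and the quotient of the ratios was 0.972 (0.935 to 1.01). On chromosomes 1 to 15 both ratios were 1.16, with a quotient of 0.999 (0.961 to 1.04). The quotient moved with the list that chose the windows, at 1.18 for windows with at least 10 *primpol* starts and 0.796 for those with at least 10 wild type starts. *primpol* peaks were more numerous in 353 of the 537 dense windows (65.7%), against a background of 54.2% of all windows with a peak. They were fewer in 109 (20.3%), against 27.5% of all windows, and 75 dense windows (13.97%) held equal numbers. Windows with 15 to 19 starts gave 64.3% with more and 25.5% with fewer *primpol* peaks. The share of windows on either side is read against the total per window, since a ratio just above 1 shows up more often where more peaks are counted. *primpol* peaks made up between 35% and 76.2% of a dense window, with a median of 53.8% (interquartile range 50 to 57.1%).

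The balance differed between chromosomes. It was 1.11 (1.05 to 1.17) in dense windows of chromosome 2, against 1.08 in its other windows, and 1.29 (1.11 to 1.498) in dense windows of chromosome 5, against 1.18. On chromosome Z, the 5 dense windows held 63 *primpol* and 50 wild type peaks, a ratio of 1.26 (0.869 to 1.83). The other windows of chromosome Z had 2490 *primpol* and 1185 wild type peaks, a ratio of 2.1 (1.96 to 2.25). The quotient on chromosome Z was 0.600 (0.411 to 0.875), and on each of the other chromosomes its interval included 1. The 16 intervals were not adjusted for their number and rest on the counts that chose the windows, so they are a description.

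When peaks had to reach 2 in −log10 q-value to be counted in the same windows, the balance leaned further to *primpol*. Dense windows then held 1780 *primpol* and 1055 wild type peaks, a ratio of 1.69 (1.56 to 1.82), against 1.46 (1.41 to 1.51) in other windows. These stronger peaks were 27.2% of *primpol* members and 18.7% of wild type members, against 19.1% of *primpol* and 15.6% of wild type peaks in other windows. The quotient of 1.15 (1.06 to 1.26) was 1.25 (1.11 to 1.41) without chromosome 2 and 1.13 (0.998 to 1.28) on chromosome 2. On chromosomes 1, 3, 4 and 5 it was 1.23 (1.03 to 1.48), 1.4 (1.08 to 1.83), 1.05 (0.762 to 1.45) and 1.75 (1.12 to 2.72), with intervals that overlap each other. These stronger peaks are among the peak starts that chose the windows, so the quotients and their intervals are a description. The q-value depends on depth, and the part of the deeper *primpol* input in these ratios was not tested.

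Dense windows were unevenly spread over the chromosomes. Chromosome 2 alone held 222 of the 537, or 14.97% of its windows with a peak, against 4.33% on all the others together. Chromosomes 1, 3, 4 and 5 held 133, 66, 47 and 30, between 5.28% and 6.89% of their windows. The smaller chromosomes 6 to 15 held 1 to 7 each, at most 2.54% of their windows, and chromosome Z held 5 (0.735%). Chromosomes 1 to 5 thus held most dense windows, whereas chromosome Z, with more windows than chromosome 5 (680 against 568), held few. The level of the local background (lambda, the peak caller's estimate of the input-derived signal under a peak) moved with this order at both ends. On chromosome 2 its median was 1.42 times that of all peaks in *primpol* and 1.37 times in wild type, and on chromosome Z it was 0.492 times in *primpol* and 0.521 times in wild type. On chromosomes 1 and 3 to 15 it lay between 0.916 and 1.04 times that of all peaks in either list. The part of this level in the number of dense windows was not tested.

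**Figure D2:**
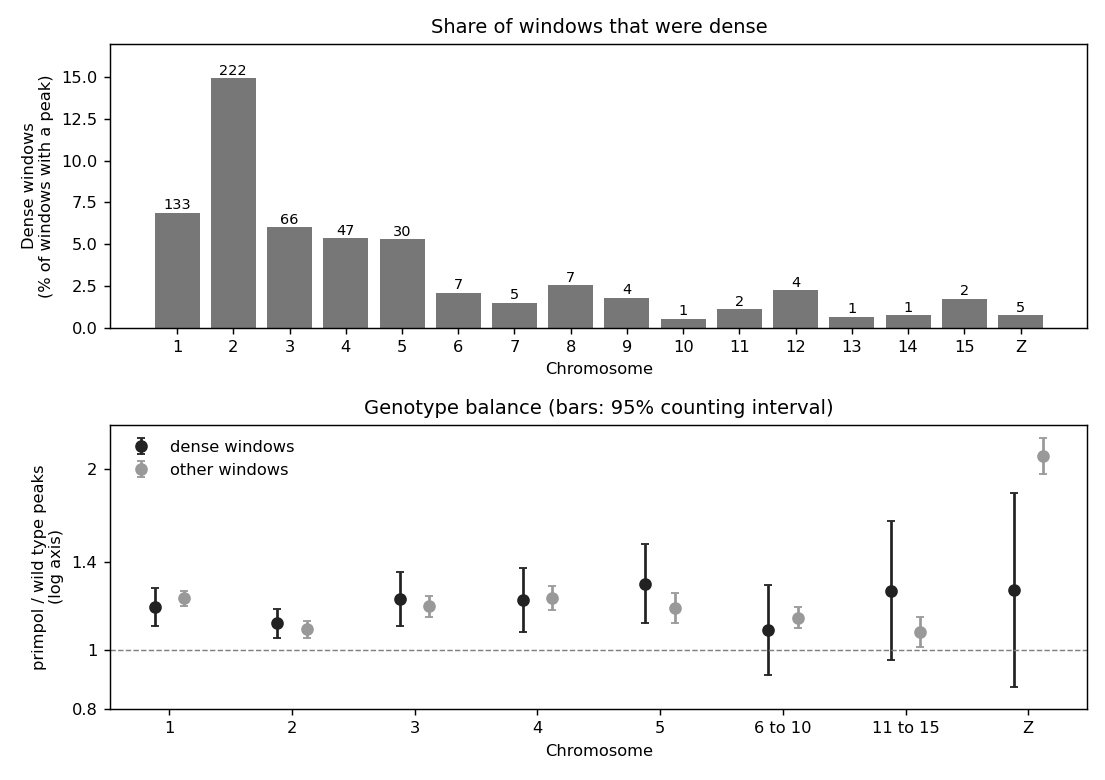
Top, share of windows with a peak that were dense (y axis, %) on each chromosome (x axis), with the number of dense windows above each bar. Bottom, ratio of *primpol* to wild type peaks (y axis, log scale) in dense windows (dark) and in other windows (light), with bars for the 95% counting interval and the smaller chromosomes grouped. Chromosome 2 stands highest in the top panel at 14.97%, and in the bottom panel dense and other windows lie furthest apart on chromosome Z.

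Within chromosome 2, every stretch of 10 Mb held dense windows, from 2 to 30 with a median of 13. The stretches from 70 to 80, 20 to 30 and 90 to 100 Mb held 30, 28 and 24, and the first 10 Mb held 2. Chromosome 1 had 1 to 19 in each stretch, and chromosome 3 had 1 to 16 apart from an end piece of 12 windows with none. On chromosome Z, 5 of 9 stretches held none, the last of them an end piece of 11 windows. Chromosomes with many dense windows therefore also had poor stretches.

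Peaks in dense windows were wider in both genotypes. The DNA was cut with restriction enzymes before the pulldown, and the part of fragment length in these widths was not tested. The median width was 1010 bp in dense windows and 825 bp in other windows for *primpol*, a ratio of 1.22 (1.19 to 1.27). For wild type it was 923 bp in dense and 790 bp in other windows, a ratio of 1.17 (1.13 to 1.21). After each width was divided by the median of its list and chromosome, the ratios were 1.17 in *primpol* and 1.13 in wild type. On all 9 chromosomes with at least 50 members in each list the dense median was the larger, by 1.01 to 1.52 times in *primpol* and 1.06 to 1.38 times in wild type. The shift ran through the whole range of widths. Peaks of 5 kb or more made up 4.56% in dense and 3.03% in other windows for *primpol*, and 3.79% in dense and 2.79% in other windows for wild type. Peaks of 500 bp or less were correspondingly fewer, at 24.4% in dense and 28.9% in other windows for *primpol*, and 27.1% in dense and 30.5% in other windows for wild type.

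Peak height, the deposited pileup, differed much less once the chromosome was taken into account. Median height was 19.2 in dense and 17.5 in other windows for *primpol*, and 14.8 in dense and 13.7 in other windows for wild type. Relative to the median of the same list and chromosome these became 1.02 in dense and 0.997 in other windows for *primpol*, and 1.00 in dense and 0.999 in other windows for wild type. Most of the difference in raw height was therefore one between chromosomes. The small remainder was larger in *primpol*, where 12.8% of members (11.97 to 13.6%) fell among the highest 10% of their chromosome, against 9.55% of other peaks. In wild type the share was 10.5% (9.76 to 11.4%), against 9.92% of other peaks. By chromosome, the dense over other height ratio was 1.01 to 1.10 in *primpol*, above 1 on all 9 chromosomes with at least 50 members in each list. For wild type it was 0.985 to 1.11, above 1 on 6 and below 1 on 3 of them.

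Lambda moved with raw height. Its median was 7.78 in dense and 6.96 in other windows for *primpol*, and 5.15 in dense and 4.74 in other windows for wild type. Relative to the chromosome it was 1.01 in dense and 0.998 in other windows for *primpol*, and 0.999 in dense and 1.00 in other windows for wild type. Fold enrichment, the ratio of height to lambda with 1 added to each, was 2.27 in dense and 2.30 in other windows for *primpol*, and 2.52 in dense and 2.55 in other windows for wild type. Relative to the chromosome it was 1.01 in dense and 0.999 in other windows for both lists. Members and other peaks thus stood at nearly the same height above their local background, with a direction that turned with the scale. Very strong peaks, whose −log10 q-value reached 5, were rare in both settings. They numbered 20 of 6540 (0.306%) in dense windows, against 98 of 39124 (0.250%) in other windows for *primpol*. In wild type they numbered 11 of 5640 (0.195%), against 68 of 32785 (0.207%) in other windows.

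**Figure D3:**
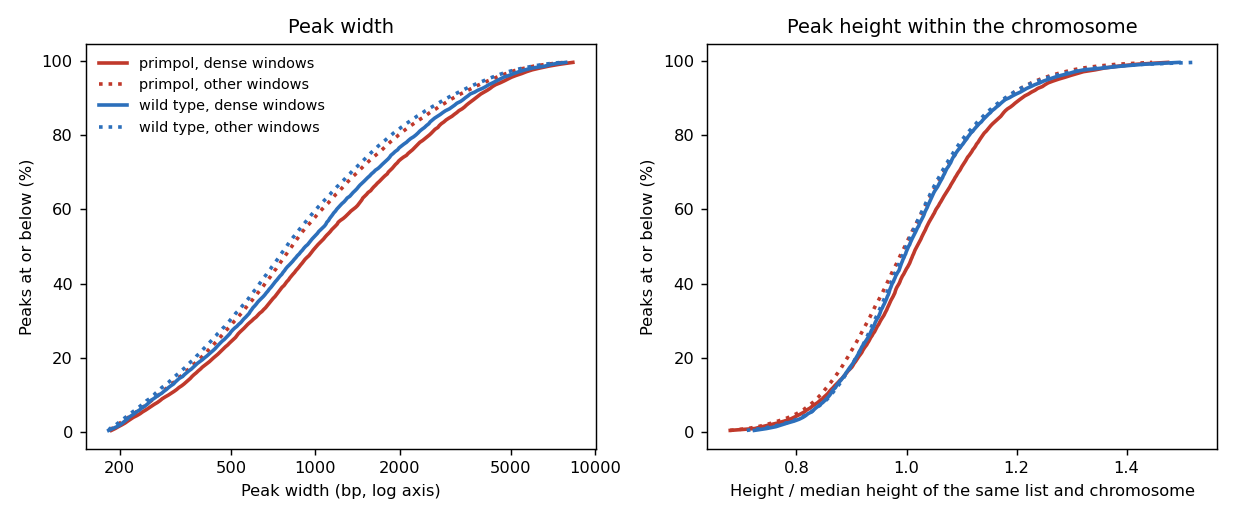
Cumulative share of peaks (y axis, %) by width in bp (left, log x axis) and by height divided by the median of the same list and chromosome (right, x axis), for *primpol* (red) and wild type (blue) in dense (solid) and other (dotted) windows. The solid width curves lie to the right of the dotted ones throughout, with medians of 1010 bp in dense and 825 bp in other windows for *primpol* and of 923 bp in dense and 790 bp in other windows for wild type, whereas the height curves nearly coincide in wild type.

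The 3 tallest members of each list were on chromosomes 1 and 2, and each had a counterpart in the other genotype. The tallest in *primpol*, at position 27222604 to 27224635 of chromosome 2 (Galgal5), had a height of 42.2, 1.86 times the chromosome median, and overlapped a wild type peak of height 28.7. The second, at 17710045 to 17712464 of chromosome 1, had a height of 40.1 and a −log10 q-value of 13.3, and overlapped a wild type peak of height 24.2. Relative to its chromosome this second peak stood higher, at 2.39 times the median. The third, at 144875842 to 144886681 of chromosome 2, was both tall (39.0) and wide (10840 bp). Its wild type partner, at 144875826 to 144886702, was the third tallest (29.4) and the third widest (10877 bp) of the wild type members. The tallest wild type members were at 93880348 to 93881434 and 94868870 to 94869229 of chromosome 2, with heights of 29.8 and 29.7. Heights are on the scale of each genotype's input, so those of the lists are set side by side and not compared.

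The widest members reached well above 10 kb. In *primpol* the widest spanned 18466 bp at 2742867 to 2761332 of chromosome 8 and overlapped 5 wild type peaks, the widest of them 7841 bp. The second, of 14416 bp at 48082946 to 48097361 of chromosome 2, matched the widest wild type member, of 14176 bp at 48083194 to 48097369. The third *primpol* peak, of 12410 bp on chromosome 2, overlapped 3 wild type peaks. In wild type the second, of 12484 bp at 148922008 to 148934491 of chromosome 1, overlapped 2 *primpol* peaks. A single broad peak in one list thus at times faced several pieces in the other.

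More of the members had a partner, a peak of the other list sharing at least 1 bp. Among *primpol* members 4327 of 6540 had one (66.2%, 65.0 to 67.3%), against 55.8% in other windows and a background of 57.3% of all *primpol* peaks. Among wild type members 4563 of 5640 had one (80.9%, 79.9 to 81.9%), against 68.6% in other windows and 70.4% of all wild type peaks. The share was higher in dense windows on all 9 chromosomes with at least 50 members in each list, by 2.25 to 32.2 percentage points in *primpol* and by 8.20 to 20.3 points in wild type. The highest *primpol* difference was on chromosome Z, where 63.5% of members had a partner, against 31.3% of other peaks. With an overlap of at least 50% of both peaks, the shares were 36.2% in dense and 28.6% in other windows for *primpol*, and 41.9% in dense and 34.1% in other windows for wild type. Windows with more and wider peaks offer more overlap by position alone, and the part of density in these shares was not tested.

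Overlapping peaks of both lists were joined into loci, of which the dense windows held 7339. Of these, 55.2% were shared, 30.2% were found in *primpol* alone and 14.7% in wild type alone. Among the 48099 loci of other windows, 42.7% were shared, 35.9% were in *primpol* alone and 21.4% in wild type alone. A typical dense window was thus a string of 13 loci (range 7 to 22), of which 7 were shared (2 to 13), 4 were in *primpol* alone (0 to 13) and 2 in wild type alone (0 to 8). Among shared loci of dense windows, 82.8% paired 1 *primpol* with 1 wild type peak, against 85.6% elsewhere. In 10.5% of them 1 *primpol* peak spanned 2 or more wild type peaks, against 8.23% elsewhere, and in 5.43% 2 or more *primpol* peaks faced 1 wild type peak, as elsewhere (5.43%). Loci in dense windows were separated by a median gap of 3.34 kb, against 6.63 kb in other windows.

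Sharing and width changed gradually with the number of starts, whereas the genotype balance moved little. Windows were classed by 1 to 4, 5 to 9, 10 to 14, 15 to 19, 20 to 24 and 25 to 33 starts. In this order the ratio of *primpol* to wild type peaks was 1.23, 1.201, 1.19, 1.18, 1.16 and 1.15. The counting intervals of the end classes overlapped, at 1.16 to 1.30 in the lowest and 1.07 to 1.23 in the highest. Over the same classes the share of shared loci was 23.3, 37.5, 45.6, 50.5, 54.4 and 57.6%, and the median *primpol* width 653, 764, 849, 934, 1006 and 1025 bp. Wild type widths were 632, 737, 819, 862, 923 and 922 bp. Chromosome 2 contributed 5.11% of the windows of the lowest class and 50.9% of those of the highest, and chromosome Z 16.7% and 0.877%. The chromosomes that make up the classes thus shifted together with width, sharing and balance. On chromosome Z the ratio was 2.1 in other windows, and on chromosomes 1 to 15 it was 1.16 in dense and in other windows. The part of this chromosome make-up in the values of the classes was not tested.

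Dense windows were not all isolated along the chromosomes. They formed 412 runs of adjacent windows, of which 331 were single windows, 58 had 2, 12 had 3, 5 had 4, 4 had 5 and 2 had 7 windows. The 81 runs of 2 or more held 206 windows (38.4%). Of the 23 runs of 3 or more, 13 were on chromosome 2, 5 on chromosome 1, 3 on chromosome 3 and 2 on chromosome 5. Runs depend in part on where the grid falls, since a peak-rich stretch can be split between windows. Neighbouring dense windows are also more frequent where more windows are dense, as on chromosome 2 (14.97%). The part of this in the runs was not tested.

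Around dense windows the number of starts was above the mean over all windows at long distances. That mean pools all chromosomes analysed, whereas chromosome 2 alone held 222 of the 537 dense windows. The part of this chromosome make-up in the excess was not tested. Dense windows held a mean of 12.2 *primpol* and 10.5 wild type starts. At a distance of 100 kb the means were 8.43 on both sides in *primpol*, and 6.91 and 6.95 in wild type, against means over all windows of 4.94 in *primpol* and 4.16 in wild type. At 500 kb they were 7.55 and 7.53 in *primpol* and 6.29 and 6.28 in wild type. The step at the window itself is set by the rule, and so is part of the shoulders, since some neighbours were dense windows too. Over the 412 neighbours on each side at 100 kb that were not dense, the means were 7.12 and 7.21 in *primpol*, and 5.75 and 5.86 in wild type, still above the means over all windows. Counts of adjacent windows had a Spearman correlation of 0.51 in *primpol* and 0.44 in wild type (n = 9223 pairs of windows). It is given as a description, since neighbours lie on the same chromosome and base composition was not measured.

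**Figure D4:**
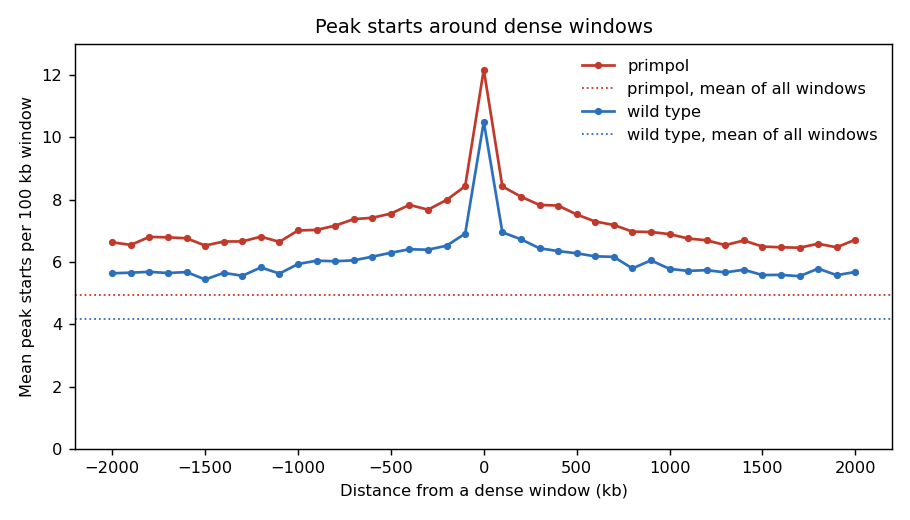
Mean peak starts per 100 kb window (y axis) by distance from a dense window in kb (x axis) for *primpol* (red) and wild type (blue), with dotted lines for the mean over all windows. Both lines fall steeply within 100 kb, to 8.43 in *primpol* and 6.91 to 6.95 in wild type, and stay above their dotted lines, 4.94 in *primpol* and 4.16 in wild type, up to 2000 kb. The dotted means pool all chromosomes analysed, whereas chromosome 2 held 222 of the 537 dense windows.

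The longest run with most peaks lay at 133400001 to 134100000 of chromosome 2. Its 7 windows held 26, 23, 24, 26, 24, 24 and 23 starts, 88 of *primpol* and 82 of wild type in all, and the windows on either side held 18 each. Peaks of *primpol* numbered 11 to 14 and those of wild type 10 to 13 per window, so neither list varied much along the run. Its 96 loci comprised 65 shared, 21 in *primpol* alone and 10 in wild type alone. Median width was 1297 bp in *primpol* and 849 bp in wild type, a wider gap than over all members. The tallest peak in either list was the same locus, at 133504638 to 133507156 in *primpol* (height 32.9, −log10 q-value 5.04) and at 133504616 to 133507181 in wild type (height 22.3, −log10 q-value 3.07).

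The second run of 7 windows lay at 29000001 to 29700000 of chromosome 2, with 20, 23, 25, 28, 22, 22 and 21 starts and 13 in each window beside it. It held 88 *primpol* and 73 wild type peaks. Its edges were thus sharper than those of the first run. Of its 100 loci, 53 were shared, 32 were in *primpol* alone and 15 in wild type alone. The widest and tallest peak was again common to both lists, spanning 7872 bp from 29047926 in *primpol* (height 34.4) and 7830 bp from 29047947 in wild type (height 24.2). Lambda in this run was 1.08 times the chromosome median in *primpol* and 1.12 times in wild type.

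The third run, which had the most peaks of the 4 runs of 5 windows (119, against 118 in the next), lay at 71600001 to 72100000 of chromosome 2. Its windows held 23, 25, 22, 27 and 22 starts, with 17 and 13 beside it. It comprised 65 *primpol* and 54 wild type peaks in 69 loci, of which 41 were shared, 22 were in *primpol* alone and 6 in wild type alone. As a share of its length this run was the most heavily covered of the 3, at 28.4%, against 24.6% in the first and 22.3% in the second, although in covered length it had the least, 142 kb, against 172 and 156 kb. Its window at 71900001 to 72000000 had 36.2 kb under a peak of either list, 35.4 kb in *primpol* and 26.3 kb in wild type. The tallest peak of the run, at 71819921 to 71827756 in *primpol* (height 33.8) and 71819937 to 71827742 in wild type (height 21.7), was also the widest of the wild type list there, at 7806 bp. In all 3 runs, 79.5 to 88.9% of wild type peaks and 63.6 to 76.1% of *primpol* peaks had a partner.

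**Figure D5:**
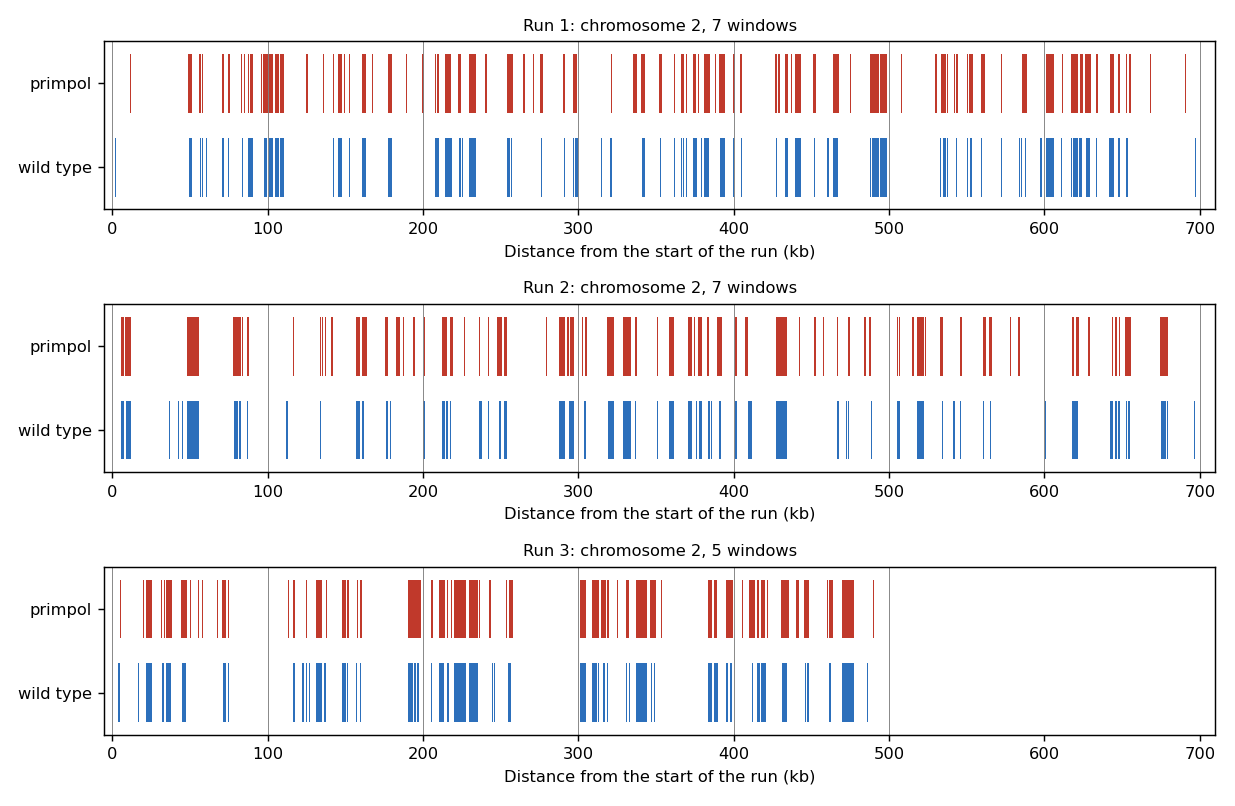
Peaks of *primpol* (red, upper row) and wild type (blue, lower row) drawn to scale along 3 runs of dense windows on chromosome 2, the only 2 of 7 windows and, of the 4 of 5 windows, the one with most peaks, by distance from the start of the run in kb (x axis), with vertical lines at window borders. Many broad peaks stand at the same places in both rows, but some of *primpol* have no wild type peak or face several pieces. Peaks of any width number 88, 88 and 65 in *primpol*, against 82, 73 and 54 in wild type.

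Single windows showed how different the contents could be at a similar number of starts. The highest number, 33, was reached at 82500001 to 82600000 of chromosome 2 (16 *primpol* and 17 wild type) and at 80800001 to 80900000 of chromosome 2 (15 *primpol* and 18 wild type). The first lay between windows of 19 and 17 starts. The second stood next to a window with only 4 starts on one side and 20 on the other, so density could change abruptly. The next, with 32 starts each, were at 41600001 to 41700000 of chromosome 5 (18 *primpol* and 14 wild type) and at 100200001 to 100300000 of chromosome 3 (19 *primpol* and 13 wild type). Of the 5 windows with 31 starts, the one with most bases covered in union, at 120100001 to 120200000 of chromosome 2, held 16 *primpol* and 15 wild type peaks. Its median widths were 1653 bp in *primpol* and 1029 bp in wild type, and its widest peaks 9603 bp in *primpol* and 9398 bp in wild type.

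At the *primpol* end of the balance, a window at 93000001 to 93100000 of chromosome 3 held 16 *primpol* and 5 wild type peaks. Of its loci 4 were shared and 12 were in *primpol* alone, so wild type had no locus of its own there. The window at 35200001 to 35300000 of chromosome 3 held 16 *primpol* and 6 wild type peaks, with 13 loci in *primpol* alone, and that at 18100001 to 18200000 of chromosome 1 held 15 *primpol* and 6 wild type peaks. In these 3 windows *primpol* peaks were narrow, with median widths of 633 to 688 bp, and *primpol* heights were 0.930 to 1.05 times the chromosome median. The windows were chosen for this balance, so their values are a description.

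At the wild type end, a window at 86500001 to 86600000 of chromosome 2 held 7 *primpol* and 13 wild type peaks, but *primpol* peaks covered 19.6 kb of it and wild type peaks 10.3 kb. The *primpol* peaks there had a median width of 3419 bp, against 585 bp in wild type. At 19300001 to 19400000 of chromosome 1, 8 *primpol* and 14 wild type peaks made up 7 loci, all of them shared, and covered 25.5 kb in *primpol* and 18.0 kb in wild type. In these windows, then, fewer *primpol* peaks did not mean fewer *primpol* bases. At 24000001 to 24100000 of chromosome 8, by contrast, 8 *primpol* and 14 wild type peaks covered 20.2 kb in *primpol* and 24.3 kb in wild type, and 6 loci were in wild type alone.

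The most covered windows were all on chromosome 2. That at 27100001 to 27200000, with 15 *primpol* and 14 wild type peaks, had 44.3 kb covered in *primpol* and 37.7 kb in wild type, or 46.0 kb in union. Those at 86700001 to 86800000 and 72900001 to 73000000 had 44.6 and 43.1 kb in union. Their median *primpol* widths were 2520, 3272 and 2261 bp, all above the median over *primpol* members, and their numbers of starts were 29, 27 and 22. The least covered, at 66600001 to 66700000 of chromosome 3, 141900001 to 142000000 of chromosome 2 and 47100001 to 47200000 of chromosome 1, held 20 starts each but had 10.2, 10.6 and 10.9 kb in union. Their median widths were 497 to 631 bp in *primpol* and 411 to 492 bp in wild type.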

How the data were processed

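Per the labels, S9.6 DRIP and input libraries of *primpol* and wild type DT40 cells were analysed, 1 list per genotype. The authors trimmed reads with Trim Galore 0.4.4, aligned them with Bowtie2 2.2.6 to Galgal5 and *Drosophila*, kept unique matches and called broad peaks with MACS2 2.1.1.20160309 against input. Per the paper, DNA was digested with a mix of restriction enzymes before the pulldown and sheared after it. How replicates entered the alignment is not stated. Spike-in reads were not used, so heights carry no spike-in scale.

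The deposited signal (pileup, here height) is averaged over the peak, with the larger of DRIP and input scaled down to the smaller. The deposited fold enrichment is a ratio to local background, and lambda was computed as (height + 1) / fold enrichment − 1. The deposited −log10 q-value is the peak caller's own. Per the file headers, q was limited to 0.05 in strong and 0.1 in weak regions.

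Windows were assigned by peak start. Partners shared at least 1 bp. Ratios of counts have 95% log-scale intervals and shares 95% Wilson intervals. Ratios of medians have 95% intervals from the order statistics of the dense median alone. No p-value was computed. Python 3.11.15, numpy 2.4.6, pandas 2.3.3, scipy 1.17.1 and matplotlib 3.10.9 were used, and the window count was tested on simulated data. Members and lists were chosen with earlier results of these data known. Named were the 5 windows with most starts (ties by covered length), the 3 longest runs (ties by number of peaks), the 3 windows at each end of *primpol* share and of covered length, and the 3 tallest and 3 widest members of each list. Gene content was planned only with an annotation of Galgal5 and was not run.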

Additional observations from a re-analysis of the deposited data

How the results depend on the processing

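No paired analysis was possible because both replicates of a genotype share 1 list, and no replicate could be left out for the same reason. The lists rest on unequal input depth, and peaks of 1 window share their background, so the intervals are too narrow as a measure of biological spread. In the main setting there were 537 dense windows, 38.4% of them in runs of 2 or more, with 22.1 kb covered in union and a quotient of genotype ratios of 0.972. Dense over other medians were 1.22 in *primpol* and 1.17 in wild type for width and 1.10 in *primpol* and 1.07 in wild type for height, and partner shares differed by 10.3 percentage points in *primpol* and 12.3 in wild type. The cause of a move was not tested unless the setting itself gives it, as with fewer peaks or chromosomes.

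Windows of 50 kb with at least 10 starts numbered 1925, and had 21.5 kb covered per 100 kb, with height ratios of 1.08 in *primpol* and 1.05 in wild type and partner differences of 13.6 points in *primpol* and 14.1 in wild type. Windows of 200 kb with at least 40 starts numbered 147, with height ratios of 1.12 in *primpol* and 1.09 in wild type. At least 15 starts gave 1787 windows, 62.2% in runs, 17.2 kb, height ratios of 1.08 in *primpol* and 1.05 in wild type and a wild type partner difference of 13.6 points. At least 25 starts gave 114 windows, 17.5% in runs, 26.0 kb and height ratios of 1.13 in *primpol* and 1.10 in wild type. A grid shifted by 50 kb gave 34.1% in runs and a *primpol* height ratio of 1.09. Merging peaks within 1 kb left 255 windows, 26.3% in runs, 24.9 kb, width ratios of 1.33 in *primpol* and 1.25 in wild type and height ratios of 1.13 in *primpol* and 1.11 in wild type.

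The list that chose the windows moved the genotype balance most. With at least 10 wild type starts the quotient was 0.796, with 31.5% in runs, 21.5 kb, width ratios of 1.35 in *primpol* and 1.10 in wild type, height ratios of 1.12 in *primpol* and 1.09 in wild type and partner differences of 17.1 points in *primpol* and 7.89 in wild type. With at least 10 *primpol* starts it was 1.18 in 976 windows, with 52.7% in runs, 19.2 kb, width ratios of 1.13 in *primpol* and 1.22 in wild type, height ratios of 1.06 in *primpol* and 1.04 in wild type and partner differences of 3.37 points in *primpol* and 15.7 in wild type. Choosing on 1 list favours that list by construction.

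With peaks that reached 2 in −log10 q-value, the quotient was 1.15, width ratios were 1.28 in *primpol* and 1.37 in wild type, height ratios 1.09 in both, and the *primpol* partner difference 2.11 points. Fold enrichment in place of height turned the direction, at 0.989 in both lists, and height over the chromosome median gave 1.02 in *primpol* and 1.00 in wild type. Without chromosome Z the *primpol* height ratio was 1.09 and the partner difference 8.69 points. An overlap of 50% of both peaks gave differences of 7.59 points in *primpol* and 7.79 in wild type.

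The following were chosen after seeing the data. Without chromosome 2 there were 315 dense windows, 33.3% in runs, with 21.5 kb and height ratios of 1.03 in *primpol* and 1.00 in wild type. With the *primpol* list reduced to its 38425 peaks of highest −log10 q-value, the length of the wild type list, the quotient was 1.01. Apart from fold enrichment, no alternative turned the direction of width, height or partner share. The quotient of genotype ratios lay on both sides of 1, from 0.796 to 1.18 over the settings.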

Other observations

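Peak-dense windows also occurred outside the chromosomes analysed above. The 16 sequences numbered above 15 held 3777 peaks in 769 windows, of which 8 reached 20 starts. Of these, 5 were on chromosome 20, among them the densest, at 6000001 to 6100000, with 16 *primpol* and 15 wild type peaks. The others lay on chromosome 24 (8 *primpol* and 12 wild type), chromosome 27 (12 *primpol* and 12 wild type) and chromosome 33 (10 *primpol* and 12 wild type), so *primpol* peaks were not in excess in these 3 windows. Chromosome W had none, with at most 4 starts in a window, and 1 unplaced sequence held 20. Peaks of all these sequences, 2804 in *primpol* and 3020 in wild type, count only towards the total of both lists above. Summed over all these sequences, *primpol* peaks were thus not in excess either. In dense windows of chromosome 20 the balance went both ways. That at 7300001 to 7400000 held 12 *primpol* and 8 wild type peaks, and that at 11100001 to 11200000 held 11 *primpol* and 15 wild type peaks.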
